A study of Mus musculus with 2 samples.

Results

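Among the droplet barcodes of a wild-type mouse islet library, 389 held at least 60% of their UMIs (unique molecular identifiers, each counting 1 captured mRNA molecule) in the insulin transcripts Ins1 and Ins2. They were chosen by 4 limits on a barcode's own UMIs: Ins1 plus Ins2 of at least 60%, Gcg under 1.5%, Ppy under 1.5% and Sst under 0.3%, after limits of at least 5610 UMIs, at least 500 genes and at most 15% mitochondrial (mt-) UMIs that 4541 barcodes passed. The 389 cells were 8.57% of those 4541 cells (exact binomial 95% interval 7.77 to 9.42, counting error only). Another 2 barcodes reached the insulin limit and were over a hormone limit. They are set here against the 2629 cells that met the same limits with insulin from 35 to under 60%.

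The series holds 1 islet library from mice with a beta-cell-specific miR-203 transgene and 1 from wild-type (WT) mice, both from males aged 8 weeks that had been fasted for 12 hours. The transgenic library was not analysed here, and the labels do not give the promoter of the transgene or the number of mice per library. Both libraries were labelled as 10x Genomics 3′ v2 libraries from islets frozen in liquid nitrogen, while the same protocol text also describes a sort of intestinal goblet cells. With 1 library there are no replicates, so every comparison below is between cells of 1 library, carries intervals for counting error only and has no test.

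Beta cells make insulin, the hormone that lowers blood glucose. The mouse has a pair of insulin genes, Ins1 and Ins2. Preproinsulin enters the endoplasmic reticulum (ER), is folded and cut, and is packed into dense granules together with chromogranins and amylin, the peptide encoded by Iapp. Glucose uptake, its breakdown and mitochondrial respiration raise ATP, which closes potassium channels and lets calcium in, and calcium both releases granules and switches on immediate early genes. Because insulin mRNA is so large a share of a beta cell's RNA, levels below are counts per 1000000 non-insulin UMIs of the same cells (CPM), so that insulin itself is outside the denominator.

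For reference to the results that follow, these are 250 bases upstream of the annotated start of genes that carry the contrast, from RefSeq on GRCm38.p6, 5′ to 3′ on the gene's own strand: Ins1 (chr19:52264047-52264296, plus strand) and Iapp (chr6:142298175-142298424, plus strand) for the hormones of the granule, and Nr4a1 (chr15:101266596-101266845, plus strand) for the calcium-induced genes. All 3 genes were matched by symbol, and Ins2 had no entry. Capitals mark CATCTG, the E box of insulin promoters, and TAAT, the core of homeodomain sites, in Ins1 and Iapp, and TGCGTCA, which resembles a cAMP response element, in Nr4a1, each on either strand.
Ins1: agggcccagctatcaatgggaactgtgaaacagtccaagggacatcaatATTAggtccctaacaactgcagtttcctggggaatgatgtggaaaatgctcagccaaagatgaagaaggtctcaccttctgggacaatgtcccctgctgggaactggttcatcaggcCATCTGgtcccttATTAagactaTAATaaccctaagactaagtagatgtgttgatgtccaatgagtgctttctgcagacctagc
Iapp: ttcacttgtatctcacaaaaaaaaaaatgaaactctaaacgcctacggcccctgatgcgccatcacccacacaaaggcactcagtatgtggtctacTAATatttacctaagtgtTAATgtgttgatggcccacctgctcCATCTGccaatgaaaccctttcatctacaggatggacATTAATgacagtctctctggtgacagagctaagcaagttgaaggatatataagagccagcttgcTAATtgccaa
Nr4a1: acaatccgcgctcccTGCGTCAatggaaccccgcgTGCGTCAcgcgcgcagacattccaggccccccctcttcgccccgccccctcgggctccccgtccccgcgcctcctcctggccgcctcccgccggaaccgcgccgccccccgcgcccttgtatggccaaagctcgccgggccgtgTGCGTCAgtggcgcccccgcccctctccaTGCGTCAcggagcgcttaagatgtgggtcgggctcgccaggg
The Ins1 window held 1 CATCTG and 3 TAAT, and the Iapp window held 1 CATCTG and 5 TAAT, of which a pair overlap. The Nr4a1 window held 4 TGCGTCA. Of 32851 RefSeq promoter windows of the same length, 14.4% held CATCTG, 54.9% held TAAT and 1.75% held TGCGTCA. These matches describe letters and were not tested as binding sites.

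The cells of high insulin share were large in UMIs. They held from 5741 to 88243 total UMIs with a median of 34292, against 5665 to 85953 with a median of 22692 in cells of 35 to under 60% insulin. Insulin UMIs had a median of 21741 against 11178, and non-insulin UMIs had a median of 12534 against 11363. The larger gap in insulin UMIs follows from the rule. The ranges of both classes overlapped on all 3 measures, and some high-insulin cells were among the smallest. Beta cell genes that the rule did not use stood above their level in free RNA in the high-insulin cells of the pairs described below: Ucn3 had 733 CPM there and 277 CPM in free RNA, Slc2a2 had 226 and 118 CPM, and Pdx1 had 122 and 77.2 CPM. Over 50000 UMIs lay 45 of the high-insulin cells (11.6%) and 45 of the cells of 35 to under 60% (1.71%). Droplets that hold more than 1 beta cell cannot be told apart from single beta cells in these counts, and no doublet caller was used.

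**Figure D1:**
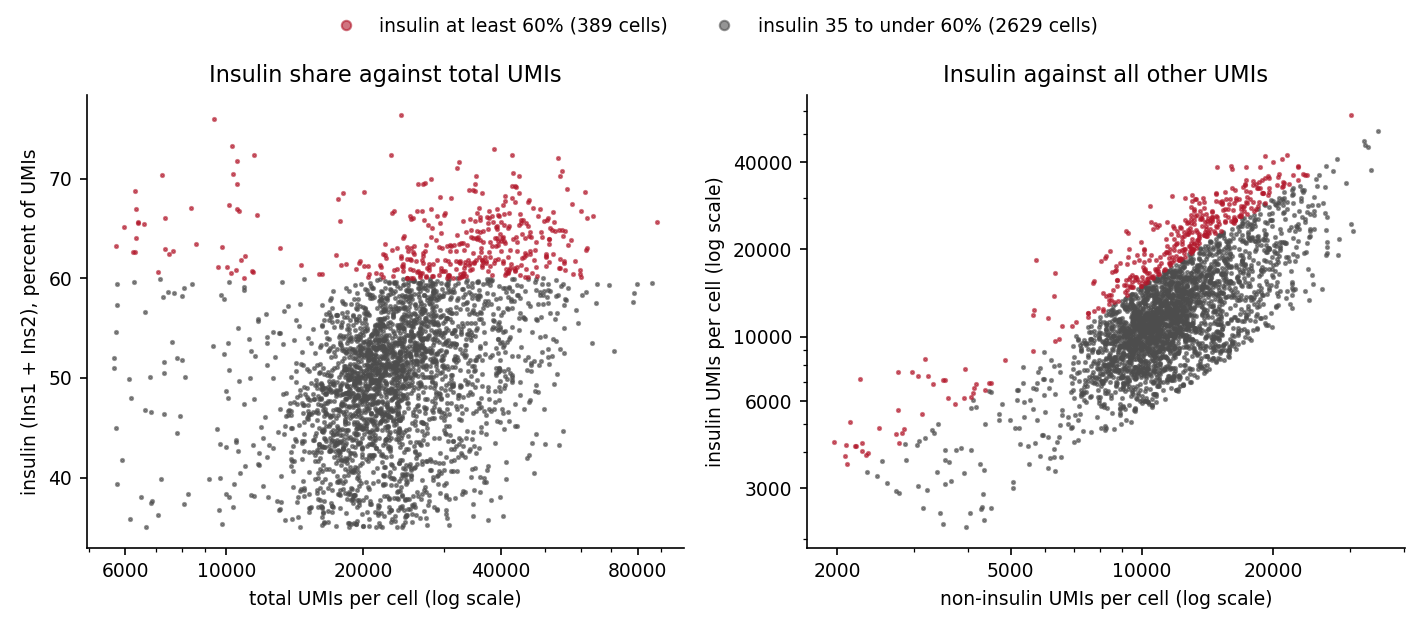
Each point is 1 cell. The left panel plots the insulin share (percent of UMIs) against total UMIs on a log scale, and the right panel plots insulin UMIs against non-insulin UMIs on log scales, with the 389 cells of at least 60% insulin in red and the 2629 cells of 35 to under 60% in grey. The red cells reach a median of 34292 total UMIs and the grey cells 22692, and a few red cells lie near the lower limit of 5610 UMIs.

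The insulin share chose the cells and is a description. It ran from just over 60% to 76.3% with a median of 63.0% in the chosen cells and had a median of 50.1% in the others. The limit cuts a continuous range: 271 cells lay from 60 to 65%, 100 from 65 to 70% and 18 at 70% or more, and 148 cells lay just inside the limit (60 to 62%) against 221 just outside it (58 to 60%). The inside and outside cells had 127068 and 114931 CPM of Iapp, 150 and 150 CPM of Dapl1, 781 and 635 CPM of G6pc2, 84.8 and 130 CPM of Nr4a1, and 31248 and 28264 median total UMIs. Nr4a1 and G6pc2 thus differed across the limit while Dapl1 was level there.

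To remove the difference in size, 383 high-insulin cells were each paired with the nearest unused cell of 35 to under 60% insulin within 5% of its total UMIs, and 6 found no partner. Paired cells had median total UMIs of 34215 and 34202. Since insulin fills more of the same total, the high-insulin cells then had fewer non-insulin UMIs, with a median of 12494 against 16331 in their partners. The 383 cells summed to 4669340 non-insulin UMIs against 6164030. All levels below are from these pairs unless another set is named.

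Within the insulin reads the high-insulin cells leaned slightly to Ins1. Ins1 was 28.4% of insulin UMIs at the median cell, with 21.9% at the 10th percentile of cells and 33.9% at the 90th, against 26.9%, 21.2% and 31.3% in partners. The ranges overlapped over most of their width. Across all cells in order of insulin share, summed Ins1 was 24.5% of insulin at 35 to 40%, 24.2% at 40 to 45%, 26.9% at 50 to 55%, 28.3% at 60 to 65% and 29.6% at 70% or more. Droplets of 1 to 200 UMIs, which mostly carry free RNA, had 22.6%. Ins1 (ENSMUSG00000035804, chr19:52264297-52265476) and Ins2 (ENSMUSG00000000215, chr7:142678656-142743381, mm10) are near-identical copies, so the split depends on how shared reads were counted, which the sources used here do not give.

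Amylin stood higher as well. Iapp (ENSMUSG00000041681, chr6:142298423-142303961) took from 5.34 to 30.6% of the non-insulin UMIs of a high-insulin cell with a median of 12.4%, against 2.08 to 21.4% with a median of 9.99% in partners, and it was higher in the high-insulin cell in 280 of 383 pairs. In sums it stood at 131327 against 103939 CPM, a log2 ratio of 0.34 (95% interval for counting error 0.33 to 0.34). Per insulin UMI, a measure that the rule sets low in the chosen cells, high-insulin cells had a median of 7.23 Iapp UMIs per 100 insulin UMIs and partners had 9.48. Free RNA had 17.2 per 100.

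The remaining listed markers of the class all stood higher, by modest amounts. These markers had been proposed with results of these cells in view, so their direction is no independent evidence. Dapl1 had 191 against 124 CPM (log2 0.62, 0.48 to 0.76). Cd63, a granule and lysosome membrane tetraspanin, had 1231 against 964 CPM (log2 0.35, 0.30 to 0.41). Cox6a2, a cytochrome c oxidase subunit known from heart and muscle, had 138 against 106 CPM (log2 0.38, 0.22 to 0.54), just past 1.3-fold. It stood at log2 0.02 in the pairs of lower total UMIs. Fam151a (log2 0.35), Aga, a lysosomal enzyme (log2 0.35), and Cib3 (log2 0.35) stood within 1.3-fold. Single cells overlapped: Dapl1 was higher in the high-insulin cell in 214 of 383 pairs, lower in 135 and equal in 34.

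Across the 3015 genes that reached 50 CPM in 1 class or both, 48 (1.59%) stood more than 1.3-fold higher in high-insulin cells and 249 (8.26%) more than 1.3-fold lower. The median gene lay at log2 -0.06, and 1182 genes lay above 0, so the reference line for the lists below is slightly under 0. Of the 48, 16 reached 50 CPM in high-insulin cells and not in partners, and of the 249, 100 reached it in partners and not in high-insulin cells. Among list members called lower, the genes under 50 CPM in high-insulin cells were Sesn2, Ern1, Stt3b, Klf4, Stard4, Srebf2 and Foxo3, and among those called higher, Ctsz and H2-Ab1 were under it in partners. Rescaling with the trimmed mean of M values, which sets the bulk of genes to no difference and shifts ratios by 0.09, gave 162 genes higher and 125 lower, which makes 56.4% of calls higher against 16.2% without that scaling. The direction of a single gene near 0 therefore depends on the scale.

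Genes of granules and prohormone processing stood higher as a group. Of 23 granule genes measured of 30 listed, 16 lay above 0, and the median was log2 0.18. None passed 1.3-fold downward and 2 passed upward, beside 1.59% of all genes upward. The 2 were Resp18, a granule protein, with 2497 against 1828 CPM (log2 0.45, 0.41 to 0.49), and Chga, chromogranin A. Chga was just past 1.3-fold, with 9998 against 7687 CPM (log2 0.38, 0.36 to 0.40). Scg2, secretogranin II, had 4204 against 3286 CPM (log2 0.36). Some exocytosis genes of the list stood otherwise: Syt7, a calcium sensor of granule fusion, had 152 against 182 CPM (log2 -0.25), and Snap25 (log2 -0.03) and Vamp2 (log2 -0.02), parts of the fusion machinery, lay below 0.

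The summed granule list had a median of 24939 CPM in high-insulin cells and 20337 CPM in partners, and was higher in the high-insulin cell in 283 of 383 pairs. All 15 processing genes were measured, 13 lay above 0, and the median was log2 0.19. Pcsk1, the convertase that first cuts proinsulin, was the 1 that passed 1.3-fold, beside 1.59% of all genes upward. It had 92.5 against 68.0 CPM (log2 0.44, 0.25 to 0.64). Its inhibitor Pcsk1n had 5450 against 4247 CPM (log2 0.36), the Pcsk2 chaperone Scg5 had 1278 against 1003 CPM (log2 0.35), Cpe, the carboxypeptidase, lay at log2 0.21 and Pcsk2 at log2 0.19.

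Glucose sensing genes were also on the higher side, without the transcription factors of beta cells. Of 14 measured of 19 listed, 2 passed 1.3-fold upward, beside 1.59% of all genes, and none downward. The median was log2 0.17. G6pc2, the islet glucose-6-phosphatase, had 873 against 605 CPM (log2 0.53, 0.46 to 0.59), and its cells ranged from 263 CPM at the 10th percentile to 1416 at the 90th, against 235 to 1018 in partners. Ucn3, a marker of mature beta cells, had 733 against 541 CPM (log2 0.44). The glucose transporter Slc2a2 lay at log2 0.31 and the zinc transporter Slc30a8 at log2 0.23.

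None of 10 measured beta cell transcription factors of 18 listed passed 1.3-fold, and the median was log2 -0.05, close to that of all genes. Pdx1, which binds the insulin promoter, had 122 against 100 CPM (log2 0.29, 0.12 to 0.45), and Neurod1, which binds its E box, had 161 against 188 CPM (log2 -0.22, -0.36 to -0.09). Isl1 lay at log2 0.18, while Nkx6-1, Mlxipl and Foxa2 lay at -0.01.

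The ER lists differed from one another. Of 25 genes of translocation and glycosylation, which take the nascent chain into the ER and trim it, 18 lay above 0 with a median of log2 0.14. The 1 past 1.3-fold downward, beside 8.26% of all genes, was Stt3b (45.6 against 60.7 CPM, log2 -0.41). Stt3b is a catalytic subunit of the oligosaccharyltransferase. Ssr2, of the translocon-associated complex (log2 0.35), and the signal peptidase subunit gene Spcs2 (log2 0.34) stood high in the list. The oligosaccharyltransferase subunit genes Ddost (log2 0.31) and Dad1 (log2 0.30) did too. In contrast, none of 19 measured chaperone and folding genes passed 1.3-fold and 7 lay above 0, with a median of log2 -0.03. The main chaperone Hspa5 (BiP) had 2579 against 3087 CPM (log2 -0.26, -0.29 to -0.23) and Hsp90b1 had 1199 against 1430 CPM (log2 -0.25). The highest, Ppib, a prolyl isomerase, lay at log2 0.16.

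ER-associated degradation, which clears misfolded chains, had 2 of 15 genes past 1.3-fold downward and none upward, beside 8.26% of all genes downward. Syvn1, its ubiquitin ligase, had 88.7 against 126 CPM (log2 -0.50) and Edem1 lay at log2 -0.39, against a list median of log2 -0.09. ER to Golgi transport had 0 of 24 measured genes past 1.3-fold and a median of log2 -0.02, with Cope at log2 0.31 and Golgb1 at log2 -0.22. Fkbp11, an ER prolyl isomerase outside these lists, was among the 12 highest genes with 68.1 against 43.5 CPM (log2 0.65, 0.41 to 0.89). It was under the floor of 50 CPM in partners and reached it through high-insulin cells.

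Genes of respiration and glycolysis that reached 50 CPM stood slightly higher almost throughout. Of 41 nuclear respiratory chain genes, 40 lay above 0 and the median was log2 0.19. Upward past 1.3-fold were 2, beside 1.59% of all genes. The 2 were Sdhb, a subunit of succinate dehydrogenase (127 against 96.4 CPM, log2 0.39), and Cox6a2, and the exception below 0 was Ndufa2 (log2 -0.02). All 7 measured glycolysis genes of 17 listed lay above 0 with a median of log2 0.19, and none passed 1.3-fold, the highest being Pgam1 (log2 0.32). That sign count depended on the floor. At 20 CPM, 9 of 12 glycolysis genes lay above 0. With no floor 11 of 16 did, and 2 passed 1.3-fold downward. Etfb, which passes electrons from fatty acid oxidation to the respiratory chain, had 233 against 157 CPM (log2 0.57, 0.44 to 0.69).

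The 12 measured mitochondrially encoded genes did not follow the nuclear ones: none passed 1.3-fold and their median was log2 0.01. Their share of non-insulin UMIs had a median of 5.71% in high-insulin cells and 5.85% in partners. Of 20 measured lysosome genes of 32 listed, 15 lay above 0. The cathepsin gene Ctsz was the 1 that passed 1.3-fold (59.1 against 43.3 CPM, log2 0.45), beside 1.59% of all genes upward. Ctsz had 89.0 CPM in free RNA, above both classes. The lowest lysosome gene was Atp6v1a (81.4 against 103 CPM, log2 -0.34). Among antioxidant enzymes, 9 of 15 lay above 0 and none passed, from Txnip, the glucose-induced thioredoxin inhibitor (log2 -0.20, but 0.48 without pairing and 0.30 with pairs matched on non-insulin UMIs), to thioredoxin itself, Txn1 (log2 0.38).

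**Figure D2:**
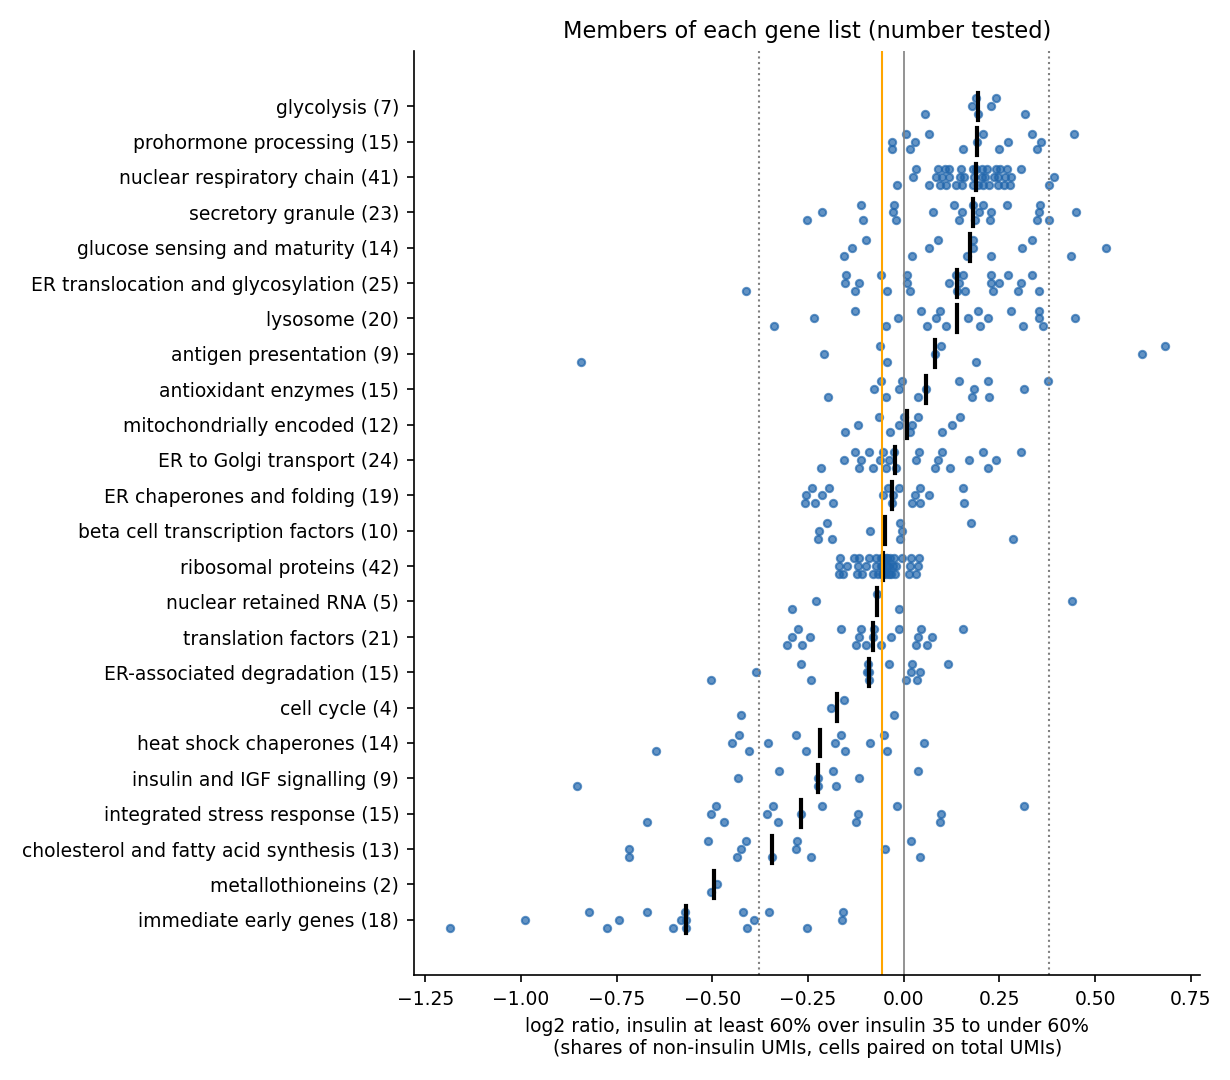
Each point is 1 measured gene of a list, at its log2 ratio of CPM of non-insulin UMIs in high-insulin cells over partners of equal total UMIs (383 pairs). Black bars are list medians, dotted lines mark 1.3-fold and the orange line is the median of all 3015 genes, at log2 -0.06. Immediate early genes lie furthest below, with a median of -0.57, while nuclear respiratory chain, glycolysis and prohormone processing genes centre at 0.19.

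Of the 25 functional lists, the one furthest from the median gene was that of immediate early genes, which calcium and other signals switch on within minutes. All 18 measured of 23 listed lay below 0, and the median was log2 -0.57. Of the 18, 14 passed 1.3-fold downward, beside 8.26% of all genes. Over all 3015 genes, 1182 lay above 0. The orphan nuclear receptor Nr4a1 (ENSMUSG00000023034, chr15:101254269-101274795) had 83.5 against 190 CPM (log2 -1.19, -1.36 to -1.02). Its window printed above lies upstream of a RefSeq start and inside these GENCODE gene bounds. Fosb had 904 against 1599 CPM (log2 -0.82), Junb 564 against 964 CPM (log2 -0.77), Egr1 724 against 1100 CPM (log2 -0.60) and Fos 1176 against 1562 CPM (log2 -0.41). The smallest gap was that of the phosphatase gene Dusp1 (372 against 416 CPM, log2 -0.16), which stood at log2 0.78 without pairing and 0.55 with pairs matched on non-insulin UMIs, and the neuronal activity factor Npas4 lay at log2 -0.25.

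Single cells varied far more than the classes differed. The summed list ran from 2637 CPM at the 10th percentile to 15876 at the 90th in high-insulin cells, with a median of 6994, and from 4256 to 20065 in partners, with a median of 10304. The high-insulin cell was the lower of the pair in 244 of 383 pairs. Immediate early RNA also varied with total UMIs: without pairing, high-insulin cells had a median of 6994 CPM against 6550 CPM in all cells of 35 to under 60%, and the list median was log2 -0.08, with 10 of 17 measured genes below 0 and 5 past 1.3-fold downward. With pairs matched on non-insulin UMIs in place of total UMIs it was log2 -0.26, with 11 of 17 below 0 and 6 past 1.3-fold downward. With the cells richest in these genes (the upper 25% of each class) left out it was log2 -0.27. Of all measured genes, 534 of 3121 passed 1.3-fold downward without pairing, and 491 of 3126 with pairs matched on non-insulin UMIs.

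Other genes among the 12 lowest were taken singly and were not chosen as a group. Tnfaip3 (ENSMUSG00000019850, chr10:19000910-19015657), which encodes A20, an inhibitor of nuclear factor kappa B (NF-kB), had 39.2 against 100 CPM (log2 -1.35, -1.60 to -1.11), and it was lower in the high-insulin cell in 179 pairs, higher in 76 and equal in 128. Birc3, an inhibitor of apoptosis, had 26.6 against 51.3 CPM (log2 -0.95), Zfp36, an mRNA-destabilising protein that is also on the immediate early list, had 60.6 against 120 CPM (log2 -0.99) and the interferon regulator Irf1 had 79.0 against 142 CPM (log2 -0.84). Nfkbia, the inhibitor that NF-kB itself induces, named after its values were seen, had 647 against 1111 CPM (log2 -0.78, -0.84 to -0.72). Ifit1, an interferon-induced gene, had 33.6 against 59.1 CPM (log2 -0.81). Tnfaip3, Birc3 and Ifit1 were under the floor of 50 CPM in high-insulin cells and reached it through partners.

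**Figure D3:**
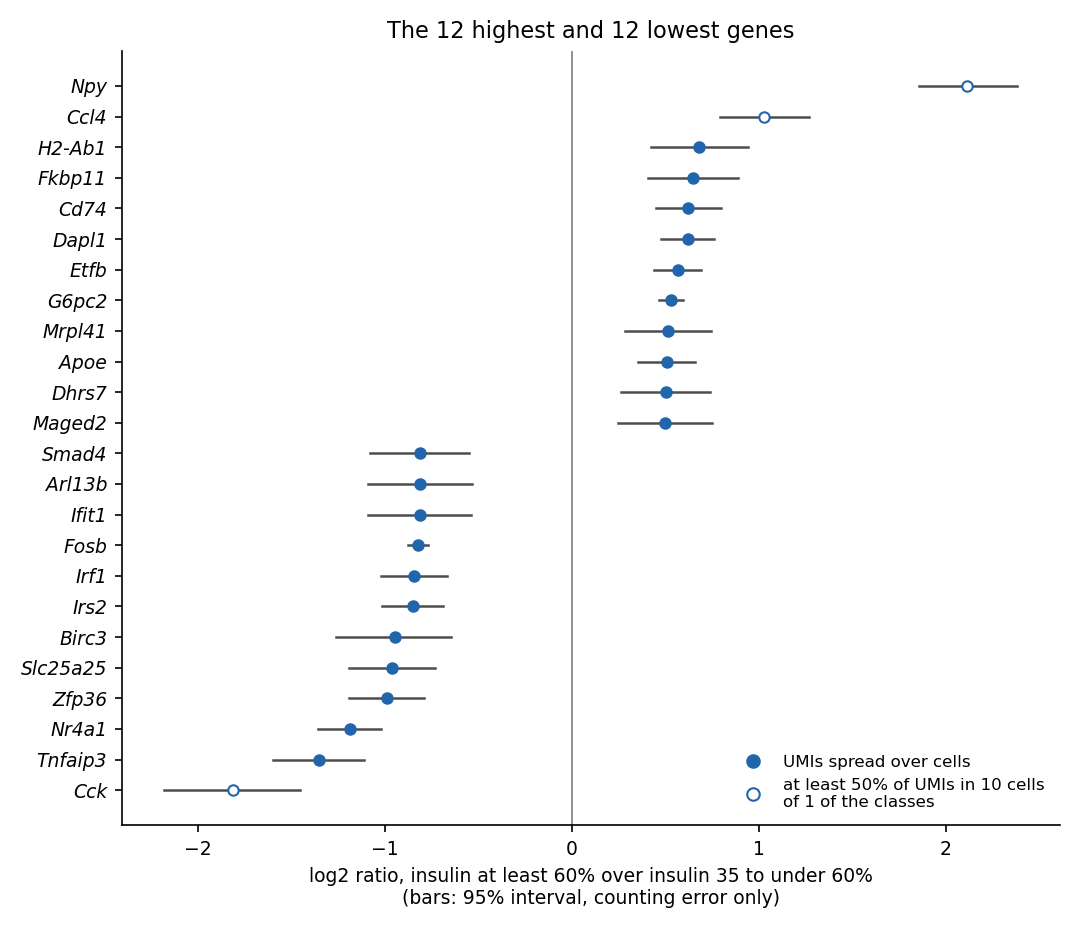
The 12 highest and 12 lowest genes of the comparison are plotted by log2 ratio of CPM of non-insulin UMIs in high-insulin cells over partners, with exact 95% intervals for counting error. Open symbols mark Npy, Ccl4 and Cck, in which 10 cells of 1 class hold at least 50% of that class's UMIs; among the others, Nr4a1 lies at -1.19 and Etfb at 0.57.

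Stress genes stood lower too, unevenly within each list. The metallothioneins, which bind zinc and other metals, had Mt1 at 8868 against 12443 CPM (log2 -0.49) and Mt2 at 3802 against 5386 CPM (log2 -0.50). Of 14 heat shock genes, 4 passed 1.3-fold downward, beside 8.26% of all genes, and 1 lay above 0, with a median of log2 -0.22. Hspa1b, an inducible HSP70 gene, had 1542 against 2416 CPM (log2 -0.65), whereas its near-identical copy Hspa1a lay at log2 -0.18, so the split between them is uncertain, and Hspb1 lay at log2 0.05.

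Of 15 measured genes of the integrated stress response, in which translation falls and Atf4 drives a gene program, 4 passed 1.3-fold downward and none upward. The list median was log2 -0.27, and 8.26% of all genes passed downward. The transcription factors Ddit3 (CHOP) and Atf3, which is on the immediate early list as well, had 711 against 999 CPM (log2 -0.49) and 84.8 against 135 CPM (log2 -0.67), and Sesn2 (log2 -0.50) and the ER stress sensor Ern1 (log2 -0.47) were the other calls, both of them under 50 CPM in high-insulin cells. Atf4 itself lay at log2 -0.27, and the serine synthesis enzyme Phgdh was the highest of the list (52.5 against 42.2 CPM, log2 0.31). Cdkn1a, the cell cycle inhibitor p21, had 155 against 208 CPM (log2 -0.42). It was the 1 call among 4 measured cell cycle genes, beside 8.26% of all genes downward.

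Sterol synthesis and insulin signalling genes were on the lower side. Of 13 measured sterol and fatty acid synthesis genes of 26 listed, 6 passed 1.3-fold downward and none upward, beside 8.26% of all genes downward. The list median was log2 -0.34. Hmgcs1, which makes HMG-CoA, had 171 against 281 CPM (log2 -0.72, -0.84 to -0.60), and Stard4 (log2 -0.72), Cyp51 (log2 -0.51), Idi1 (log2 -0.42) and the regulator Srebf2 (log2 -0.41) also passed, while Fdps lay at log2 0.04. Stard4 and Srebf2 were under 50 CPM in high-insulin cells and reached that floor through partners. At a floor of 100 CPM, 6 genes of the list were measured and 2 passed downward. The summed list was lower in the high-insulin cell in 251 of 383 pairs.

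Of 9 measured insulin and IGF signalling genes of 19 listed, 2 passed 1.3-fold downward, beside 8.26% of all genes. Irs2, the main insulin receptor substrate of beta cells, had 94.9 against 171 CPM (log2 -0.85, -1.02 to -0.69). The other, Foxo3 (log2 -0.43), was under 50 CPM in high-insulin cells and reached that floor through partners. At a floor of 100 CPM, 2 genes of the list were measured and 1 passed downward. Foxo1 lay at log2 -0.33 and the translation brake Eif4ebp1 at log2 0.04. Further genes among the 12 lowest included Slc25a25, a mitochondrial ATP carrier regulated by calcium (46.5 against 90.5 CPM, log2 -0.96). Others were Smad4, the shared SMAD of TGF-beta signalling (36.6 against 64.2 CPM, log2 -0.81), and Arl13b, a GTPase of the primary cilium (33.2 against 58.2 CPM, log2 -0.81). Slc25a25, Smad4 and Arl13b were each under 50 CPM in high-insulin cells and reached that floor through partners.

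The translation machinery hardly differed. None of 42 ribosomal protein genes or 21 translation factors passed 1.3-fold. Their medians were log2 -0.05 and -0.08, near that of all genes, and Rps3 (log2 0.04) and Rps19 (log2 -0.17) were the extremes of the ribosomal list. Of the 10 most abundant non-insulin transcripts, only Chga passed 1.3-fold upward and Mt1 downward, while Malat1, a nuclear long noncoding RNA, had 24507 against 24712 CPM (log2 -0.01) and mt-Co1 had 13077 against 13397 CPM (log2 -0.03). After thinning each cell to 2000 non-insulin UMIs, high-insulin cells detected a median of 991 genes and partners 1027, and unthinned they detected 3410 and 4181.

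Over bands of insulin share some genes were graded and others differed mainly above the limit. From 35 to 40% insulin up to 70% or more, over all cells without pairing, Resp18 ran through 1033, 1279, 1406, 1660, 1940, 2324, 2967 and 3550 CPM in the 8 bands. Dapl1 ran through 58.7, 71.7, 78.6, 108, 138, 166, 239 and 388 CPM. G6pc2 stayed between 533 and 637 CPM in the 5 bands under 60% and had 828, 985 and 1025 CPM in those above. Resp18 and Dapl1 were thus graded over the whole range, whereas G6pc2 was higher only in the bands above the limit.

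On the lower side Fosb had 1921, 1883, 1679, 1524, 1319, 988, 731 and 539 CPM in the same bands and Hmgcs1 had 344, 356, 333, 320, 270, 184, 135 and 112 CPM. Irs2 stayed between 133 and 143 CPM under 60% and had 100, 83.7 and 59.2 CPM above. Dusp1 went the other way up to the limit, with 111 CPM in the lowest band, 384 CPM at 60 to 65% and 177 CPM at 70% or more. The summed immediate early list showed such a turn: 9266 CPM at 35 to 40%, 9978 at 55 to 60%, 9263 at 60 to 65%, 7647 at 65 to 70% and 4523 at 70% or more. Median total UMIs also differed between these bands, from 20511 in the lowest to 36890 at 65 to 70% and 32251 at 70% or more, and the last band holds 18 cells. The part of total UMIs in these gradients was not tested.

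**Figure D4:**
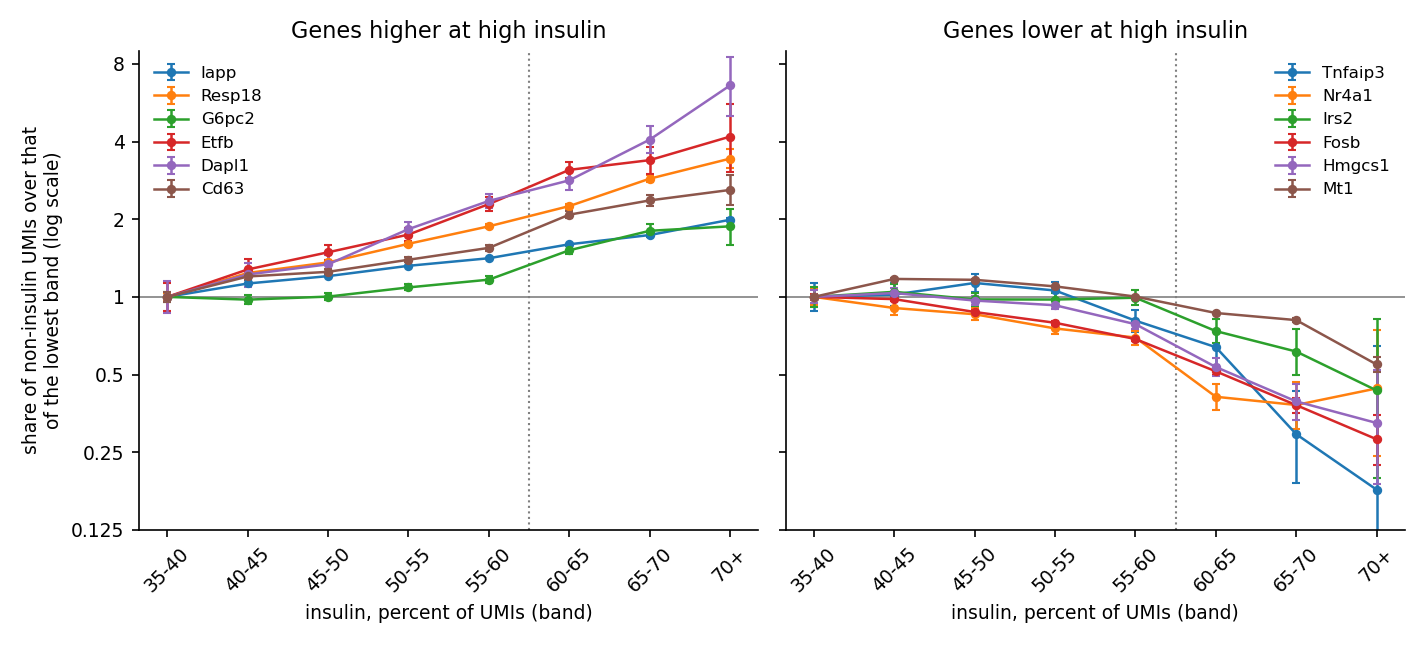
The share of non-insulin UMIs of 6 higher genes (left) and 6 lower genes (right) is plotted for 8 bands of insulin share, over its value in the band of 35 to 40%, on a log axis with exact 95% intervals for counting error. The dotted line marks the 60% limit. Dapl1 reaches 388 CPM in the top band against 58.7 CPM in the lowest, and Tnfaip3 has 13.1 CPM against 73.5 CPM.

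The class difference in immediate early RNA held in each of 4 bins of total UMIs. In all cells, split so that the high-insulin cells fill the bins evenly, high-insulin cells had 6753, 7952, 9677 and 9140 CPM from the lowest bin to the highest, against 7562, 11524, 14028 and 13130 CPM in cells of 35 to under 60%. Granule genes had 22525, 23122, 28228 and 28480 CPM against 18210, 19539, 21772 and 23141 CPM. Metallothioneins had 12020, 13345, 13158 and 12403 CPM against 17400, 16305, 17616 and 17776 CPM. In all 4 bins immediate early genes and metallothioneins were lower, and granule genes higher, in the high-insulin cells. Mitochondrially encoded RNA was not ordered this way, with 61181 against 73621 CPM in the lowest bin and 54347 against 53404 CPM in the highest.

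**Figure D5:**
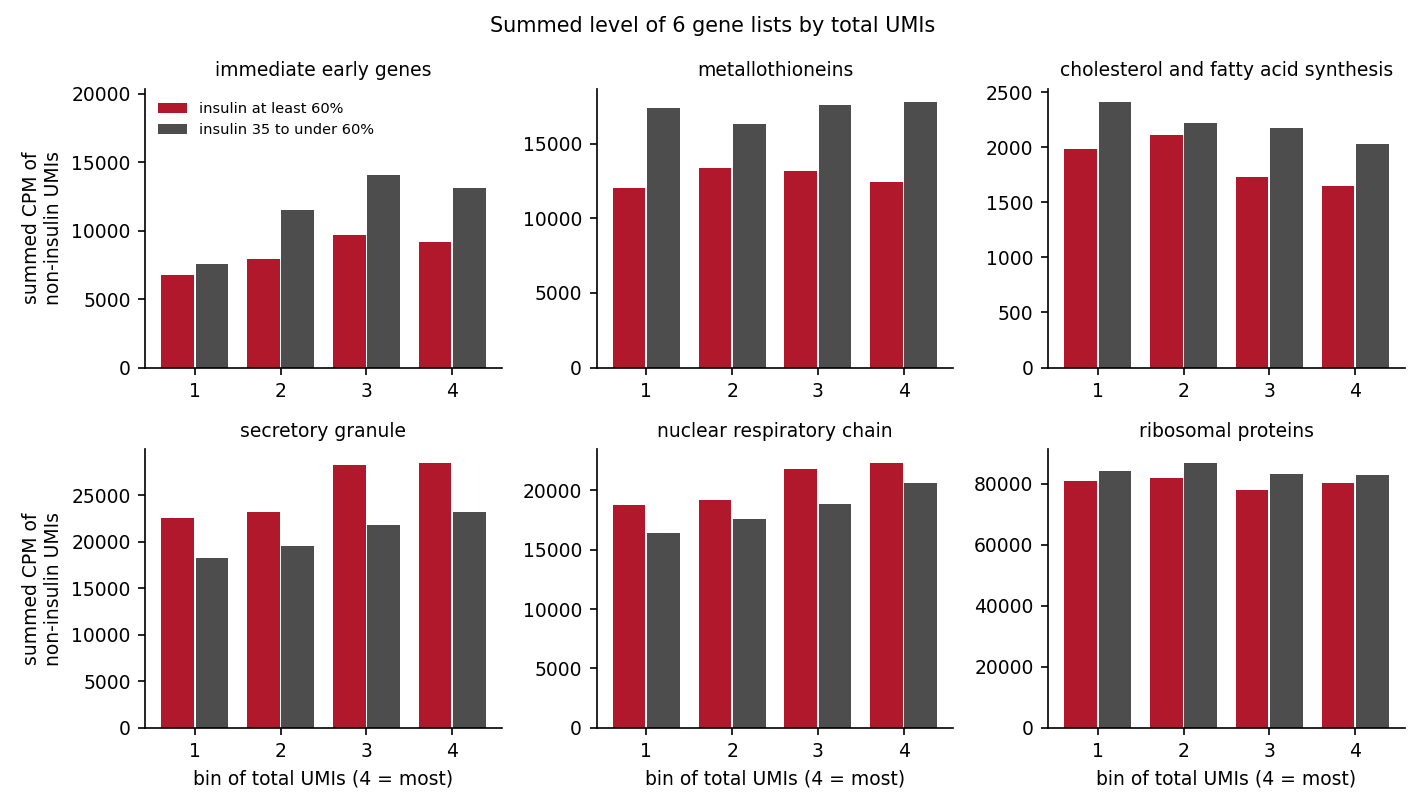
Bars give the summed CPM of non-insulin UMIs of 6 gene lists in all cells of at least 60% insulin and of 35 to under 60% insulin, in 4 bins of total UMIs set by the high-insulin cells. Immediate early genes are lower and granule genes higher in the high-insulin cells in every bin, at 6753 against 7562 CPM and 22525 against 18210 CPM in the lowest.

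RNA of other islet cells, in which the rule limits Gcg, Ppy and Sst, was present at low levels and stood somewhat higher in the high-insulin cells. The 14 alpha cell markers summed to 10043 against 8190 CPM, with 49187 CPM in free RNA, all 14 had a UMI in both classes, and the cells ranged from 5676 to 24174 CPM against 3779 to 44567 CPM. Gcg itself, limited by the rule, had 4180 against 3517 CPM and 33189 CPM in free RNA, and Ttr had 3629 against 2583 CPM (log2 0.49). The 9 delta cell markers summed to 1348 against 1119 CPM with 4804 CPM in free RNA, and the 7 pancreatic polypeptide cell markers to 5690 against 4839 CPM with 28782 CPM in free RNA. Of these sums, Sst held 458 against 360 CPM and Ppy 4565 against 3794 CPM. Both hormones are limited by the rule, so low sums follow in part from it. High-insulin cells also had fewer non-insulin UMIs than partners, and the part of free RNA in these sums was not tested. Free RNA was also taken off the summed counts of each class, in an amount set by taking all Gcg UMIs as free RNA. With it taken off, 92 genes stood higher and 356 lower.

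RNA of other tissues was low. Col1a1 and Col3a1 of stroma, Cd3e and Cd3d of T cells and Sox10 of Schwann cells were at 0 in the high-insulin cells, and Cftr of ducts at 0 in both classes. The 10 duct markers summed to 1876 against 2123 CPM, of which Krt8, a keratin that beta cells also express, had 661 against 939 CPM (log2 -0.51). Endothelial markers summed to 253 against 232 CPM. The 10 stromal markers summed to 28.3 against 27.6 CPM (154 in free RNA), the 7 lymphocyte markers to 91.2 against 98.2 CPM (97.0 in free RNA), the 6 Schwann cell markers to 62.5 against 69.4 CPM (80.6 in free RNA) and the 5 red cell markers to 54.2 against 39.1 CPM (660.4 in free RNA). The 13 macrophage markers summed to 422 against 302 CPM with 1819 CPM in free RNA, and 1 high-insulin cell held 216 of their UMIs. The 20 acinar markers summed to 124 against 33.9 CPM, of which 1 cell held 364 UMIs, and Try10 and Amy2a5 were at 0.

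In all, 3 high-insulin cells and 0 partners held over 25 UMIs of the macrophage or acinar list. Several of the highest genes had smaller ratios without their pairs. Ccl4, a chemokine, had 80.7 against 39.6 CPM (log2 1.03) and log2 0.18 without those pairs. The class II antigen presentation genes H2-Ab1 and Cd74 had 58.04 against 36.2 CPM (log2 0.68) and 124 against 80.8 CPM (log2 0.62), and log2 0.50 and 0.37 without them. Apoe, an apolipoprotein of macrophages, had 159 against 112 CPM (log2 0.51) and log2 0.32 without them. Iapp (log2 0.34), G6pc2 (log2 0.53) and Nr4a1 (log2 -1.19) were as large without these pairs.

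The most extreme ratios came from neuropeptides in a handful of cells. Npy, neuropeptide Y, had 111 against 25.6 CPM (log2 2.12), and 10 cells held 98.8% of its 519 UMIs in the high-insulin class. The richest 3 high-insulin cells held 219, 198 and 67 UMIs and the richest 2 partners 85 and 59, while 16 cells of each class had any Npy UMI. Cck, cholecystokinin, had 16.9 against 59.4 CPM (log2 -1.81), and 10 cells held 84.7% of its 366 UMIs among partners. Neither ratio describes the class as a whole.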

How the data were processed

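The authors deposited unfiltered 10x matrices of raw UMI counts per gene and barcode. FastQC, Trimmomatic and the build mm10 are recorded, per the submitters' processing notes. No source used here gives the aligner, the counter, the annotation or any handling of doublets. The WT matrix was read whole. The transgenic cells were not analysed here, and barcodes shared between the libraries could not be counted. No doublet caller was used.

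Counts were summed over cells and divided by non-insulin UMIs. Pairs were matched 1 to 1 on total UMIs within 5%. A gene had to reach 50 CPM in 1 class or both, and was called past 1.3-fold. Level intervals are exact Poisson, ratio intervals exact conditional binomial, both at 95% and for counting error only. A gene is given as the plain ratio of the summed CPM, with no pseudocount. Free RNA was read from 589592 droplets of 1 to 200 UMIs. The class limits, the 25 functional lists, the 11 cell type lists and the tests were chosen with earlier results of these data known. Named genes were the listed markers and Iapp, the 12 highest and 12 lowest ratios, the highest and lowest member of each list, and the 10 most abundant; other members of lists are given where they passed 1.3-fold or show a role, after their values were seen, as is Nfkbia. Of 626 listed genes, 4 were not in the gene list. Some genes counted within the lists are not reported here by name. The counting steps were tested on simulated data. Python 3.11.15, numpy 2.4.6, scipy 1.17.1, pandas 2.3.3 and matplotlib 3.10.9 were used. Gene coordinates are from GENCODE on mm10.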

Additional observations from a re-analysis of the deposited data

How the results depend on the processing

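Against 48 genes higher and 249 lower, the counts past the fold were 6 and 55 at 1.5-fold, 255 and 534 with no matching, 229 and 491 with pairs matched on non-insulin UMIs, 162 and 125 with the trimmed mean of M values, 126 and 741 with a floor of 20 CPM, 23 and 87 with a floor of 100 CPM, 1987 and 3107 with no floor, 226 and 638 with an insulin limit of 65%, 20 and 126 against cells of 50 to 60% insulin, and 75 and 376 in the upper part of total UMIs (cut at the median). The higher count was 130 without hormone and mt- UMIs, 92 with free RNA taken off, 116 with activated cells left out and 112 in the lower part of total UMIs, while the lower count stayed within 1.5 times. Both counts stayed within 1.5 times in strata of total UMIs (38 and 204), with each cell weighted equally (67 and 321), with stricter hormone limits (44 and 251), with an mt- limit of 5% (46 and 249) and without the mixed barcodes (45 and 246), a setting chosen after seeing the data. Cck stood at log2 0.28 with pairs matched on non-insulin UMIs, 0.55 at an insulin limit of 65%, 0.49 against cells of 50 to 60% and 0.53 in the lower part of total UMIs, and Cd74 at -0.19 with activated cells left out. The median difference in non-insulin UMIs was -3837 in the pairs, 1171 without matching and 1 when matched on those UMIs. The cause was not tested for these. Of 82 named genes, 17 had both signs over the settings, the widest beside Cck and Cd74 being Dusp1 (log2 -0.60 to 0.78), Txnip (-0.49 to 0.48) and Hspb1 (-0.57 to 0.31). Of 432 list medians under another setting, 373 stayed between the medians of the lower and upper interval ends of their members. Over 19 settings, immediate early genes ranged from log2 -0.95 to -0.08, metallothioneins from -0.63 to -0.31, sterol synthesis from -0.50 to -0.16, the nuclear respiratory chain from 0.12 to 0.30, granule genes from 0.13 to 0.29 and glycolysis from 0.11 to 0.39. The medians of ER chaperones, ER to Golgi transport, ER-associated degradation, beta cell transcription factors, ribosomal proteins, translation factors, nuclear RNA, mitochondrially encoded genes and antigen presentation changed sign between settings. No paired analysis was possible because the labels number no replicates in the 1 WT library; the pairs above are of cells. Counts of 50 CPM rest on few UMIs per cell, and 1 library limits every value to these cells.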

Other observations

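Genes outside the described groups with the highest ratios were Mrpl41, a mitochondrial ribosomal protein gene (70.5 against 49.3 CPM, log2 0.51, 0.29 to 0.74), Dhrs7, a short-chain dehydrogenase gene (65.3 against 46.1 CPM, log2 0.50), and Maged2 (58.9 against 41.7 CPM, log2 0.50). Each was under the floor of 50 CPM in partners and reached it through high-insulin cells. Gm42418, which overlaps ribosomal RNA sequence, had 383 against 282 CPM (log2 0.44), while Neat1, a nuclear long noncoding RNA, had 285 against 349 CPM (log2 -0.29). Nr3c1, the glucocorticoid receptor gene and the 1 measured member of 20 genes that beta cells normally keep low, had 53.3 against 68.5 CPM (log2 -0.36).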
